A study of Mus musculus with 4 samples.

Results

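CpG island shores are the flanks of CpG islands, where CG density declines and methylation passes from the low level of the island to the high level of bulk DNA. In many comparisons of tissues and cell states, shores are where methylation varies most. The shore sites described here are autosomal CCGG positions with 1 to 4 CCGG within 500 bp on either side, the site itself included, whose nearest dense site lies within 2000 bp. A dense site has 10 or more CCGG in the same window, a spacing found in CpG islands. The rule used only positions in the deposited files, on genome build mm9, and found 23044 shore sites among 1594137 CCGG sites in all, or 1.45%. They adjoined 7766 of 9433 autosomal dense clusters, with a median of 3 and a maximum of 11 shore sites to a cluster. No CpG island or gene annotation of mm9 was used, so "shore" here means the neighbourhood of a CCGG-dense cluster. The sequence that all members share is the restriction site itself, CCGG. No flanking sequence is shown.

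The libraries were made from mouse embryonic stem cells of the line MC1-ZE7 (strain 129S6/SvEvTac, passage 31), grown without feeders in medium with serum and LIF. The line carries the fluorescent protein Emerald under the Zscan4c promoter, so fluorescence reports promoter activity. Zscan4 genes are transcribed in the early embryo and, at any one time, in few cells of a stem cell culture. Cells were sorted into an Emerald-high and an Emerald-negative fraction, called the high and the negative fraction below. DNA of each fraction was cut with HpaII, which is blocked by methylation of the central CG, or with MspI, which cuts CCGG either way. In HELP tagging, the sequence beside each cut is then read as a tag. There was 1 library for each fraction and enzyme, so no value below has a replicate check, and the MspI libraries serve as the gauge of library error. The high fraction had 5662614 tags with HpaII and 9372711 with MspI, and the negative fraction 9535691 and 9307616.

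Shore sites were cut by HpaII more than the average site in both fractions. They held 3.32% of the Emerald-high HpaII tags and 3.63% of the Emerald-negative HpaII tags, against 1.51% of the tags of each MspI library. No single position carried these sums. The 10 most tagged shore sites together held 0.567% of the shore's HpaII tags in the high fraction and 0.556% in the negative fraction. At least 1 HpaII tag was found at 78.5% of shore sites in the high fraction (95% exact Clopper-Pearson interval 78.0 to 79.1) and at 79.4% in the negative fraction (78.9 to 79.9). With the deeper Emerald-negative library thinned to the Emerald-high total, its share was 74.6%. Sites with the same 1 to 4 CCGG but more than 10 kb from any dense site, called far sites here, had an HpaII tag at 54.6% and 51.2% of positions, without thinning. An MspI tag was found at 83.3% and 83.6% of shore sites and at 72.4% and 72.8% of far sites. Fewer far positions thus gave tags with either enzyme.

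HpaII cutting was lower with each step away from the dense cluster over most of the 2 kb, while MspI cutting was flat. Tags were taken in 8 distance steps of 250 bp and expressed per site and per 1000000 tags of the library. In the high fraction HpaII gave 2.60 in the innermost step (110 sites), 2.25 at 250 to 500 bp (2228 sites), 1.37 at 1000 to 1250 bp and 0.929 at 1750 to 2000 bp (3021 sites). In the negative fraction the values at the same distances were 3.01, 2.62, 1.48 and 0.913. The Emerald-negative profile thus began higher and ended close to the Emerald-high one. MspI tags stayed between 0.612 and 0.692 in the high fraction and between 0.618 and 0.698 in the negative fraction over all 8 steps.

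**Figure D1:**
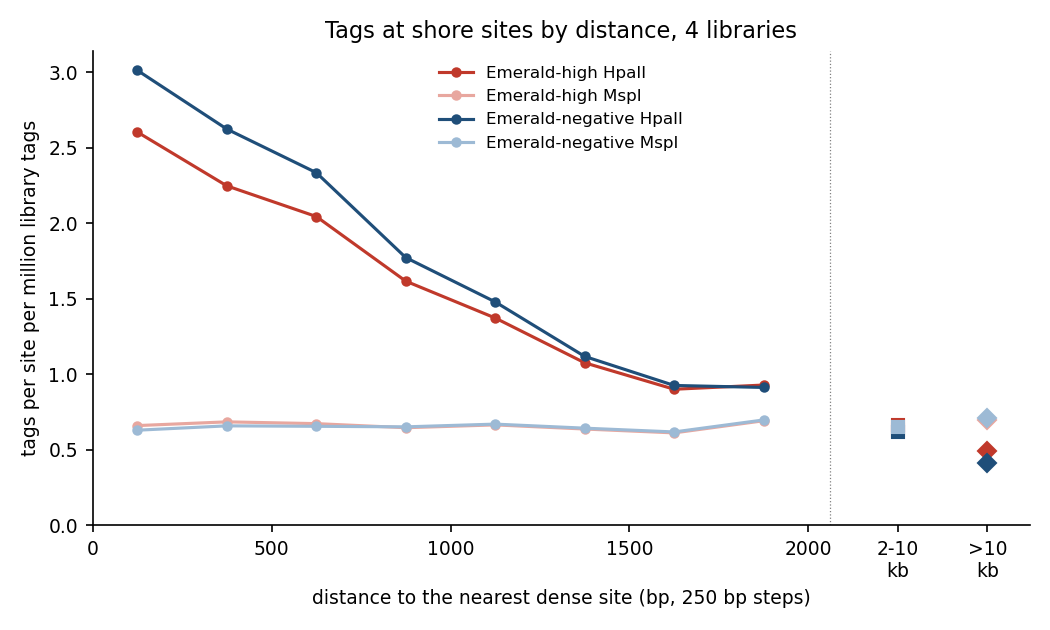
Tags per site per 1000000 library tags (y) at shore sites in 250 bp steps of distance to the nearest dense site (x), 1 line per library; squares are sites 2 to 10 kb away and diamonds sites over 10 kb away, with the same 1 to 4 CCGG. HpaII is highest beside the dense cluster, 2.60 (Emerald-high) and 3.01 (Emerald-negative), and close to 0.9 in both fractions by 2 kb, while MspI stays between 0.612 and 0.698.

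Relative to MspI, the scaled HpaII level at 250 to 500 bp was 3.28 in the high fraction and 3.98 in the negative fraction. At 1750 to 2000 bp it was 1.34 and 1.31. On the log2 scale, the level in the innermost step exceeded that in the outermost by 1.56 in the high fraction (1.42 to 1.69) and by 1.87 in the negative fraction (1.74 to 1.99). These and later intervals are 95% Poisson limits unless named otherwise. They hold counting error alone, and since tags had no molecular identifiers, copies of 1 molecule count as separate tags. The levels had not reached those of distant DNA at the edge of the shore. Far sites stood at -0.50 (log2 HpaII/MspI) in the high and -0.79 in the negative fraction, against 0.42 and 0.39 in the outermost shore step. In the last 100 bp inside the 2000 bp limit the log2 levels were 0.47 and 0.42, and in the first 100 bp outside it they were 0.47 and 0.42 again.

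The main comparison between the fractions is the log2 HpaII/MspI ratio in the high fraction minus that in the negative fraction, called the difference below. Above 0, HpaII cut relatively more in the high fraction, as it does at a less methylated site. Scaling is to library totals, so the difference is relative to the average of the library. Over all shore sites the difference was -0.13 (-0.14 to -0.12), a 1.09-fold lower value in the high fraction, but with libraries scaled to their dense sites it was 0.59. That scaling adds 0.72 to every HpaII/MspI difference, so the value of each depends on the scaling. Negative differences smaller in size than 0.72 also turn positive, while contrasts between sets of sites do not change. Restricted to the 3424 sites with at least 10 tags in both MspI libraries, the shore difference scaled to totals was -0.05 (-0.07 to -0.03). Without sites of 1 CCGG it was -0.20. The HpaII libraries alone gave -0.13 and the MspI libraries 0.00 (-0.01 to 0.01). The difference was below 0 on 19 of 19 autosomes of the same libraries, with a mean of -0.13 ± 0.04 (SD over autosomes), from -0.24 on chromosome 14 to -0.04 on chromosome 18.

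The difference was not the same along the shore. It was -0.28 within the first 250 bp (-0.46 to -0.10) and -0.28 at 250 to 500 bp (-0.32 to -0.24). At 500 to 750 bp it was -0.23, at 750 to 1000 bp -0.12 and at 1000 to 1250 bp -0.10. With only sites of 10 or more tags in both MspI libraries, these became -0.13, -0.048 (-0.10 to 0.0063) and -0.016 (-0.07 to 0.04), so beyond 750 bp the call depends on this restriction. The values then approached 0, with -0.04 at 1250 to 1500 bp, -0.02 at 1500 to 1750 bp (-0.07 to 0.01) and 0.04 at 1750 to 2000 bp (-0.0044 to 0.08). The last 2 intervals include 0, but the choice of sites moved both steps off 0 in either direction, still scaled to totals. With 10 or more tags in both MspI libraries they were 0.08 (0.01 to 0.14) and 0.15 (0.08 to 0.21), and without sites of 1 CCGG -0.14 (-0.18 to -0.09) and -0.08 (-0.12 to -0.03). With scaling to dense sites the steps ran from 0.44 to 0.76, all positive and in a similar order.

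The contrast between the ends of the shore does not depend on scaling. The outermost step exceeded the innermost by 0.31 (0.13 to 0.50). The innermost step held only 110 sites, and taking 250 to 500 bp as the inner end gave 0.32 (0.26 to 0.37). Without sites of 1 CCGG the contrast of the outermost and innermost steps was 0.20. With 15 or more CCGG asked of a dense site it was -0.38 (-2.69 to 1.93), an interval too wide to give a direction. Comparing 1500 to 2000 bp with the first 500 bp, the outer band was higher on 19 of 19 autosomes, by 0.28 ± 0.12 (SD over autosomes), from 0.12 on chromosome 18 to 0.51 on chromosome 13. MspI moved less and the other way, from 0.06 (0.02 to 0.09) at 250 to 500 bp to -0.01 (-0.04 to 0.02) in the outermost step. In HpaII alone the outermost step exceeded the innermost by 0.24.

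**Figure D2:**
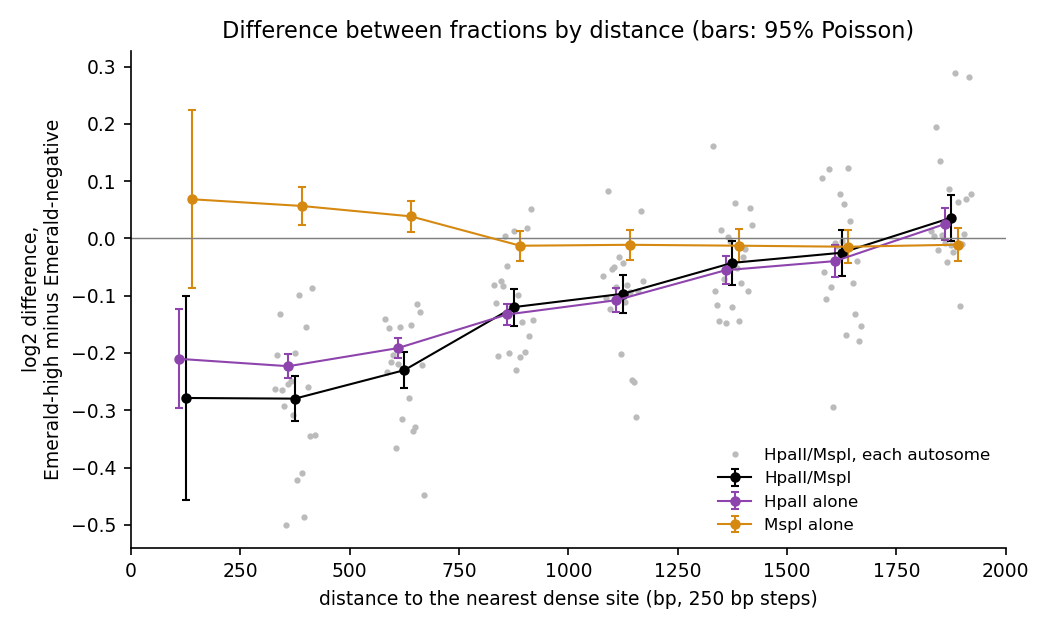
Log2 difference, Emerald-high minus Emerald-negative (y), by distance to the nearest dense site (x), scaled to library totals, for HpaII/MspI, HpaII alone and MspI alone with 95% Poisson bars; grey dots are HpaII/MspI on each of 19 autosomes, not drawn for the innermost step of 110 sites. HpaII/MspI runs from -0.28 beside the dense cluster to 0.04 at 2 kb, and scaling to dense sites would lift every HpaII/MspI value by 0.72, which turns the negative ones positive.

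Beyond the shore the values went on in the same direction. Sites of the same 1 to 4 CCGG had a difference of 0.08 in the first 1000 bp past the shore (0.06 to 0.10), 0.20 in the last 1000 bp before 10 kb (0.18 to 0.22) and 0.29 at far sites (0.29 to 0.29). At the other end, dense sites stood at -0.72 (-0.73 to -0.71). Sites with 5 to 9 CCGG within 2000 bp of a dense site stood at -0.50 (-0.51 to -0.49). MspI alone differed by 0.26 (0.25 to 0.26) at dense sites and 0.16 at sites with 5 to 9 CCGG. HpaII alone gave -0.47 and -0.34, so part of both values came from the MspI libraries. The 0.72 added by scaling to dense sites holds the same MspI difference. As a whole, shore sites lay between dense and far sites in the difference. Their pooled log2 HpaII/MspI levels, 1.13 and 1.26, also lay between those of dense sites, 1.75 and 2.47, and far sites. The innermost shore step of the high fraction, at 1.98, was above the dense sites. In HpaII tags per site per 1000000, shore sites (1.44 and 1.57) exceeded dense sites (1.05 and 1.45).

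Distance and the site's own density go together, so the shore was divided by the number of CCGG in the site's own window. There were 6412 shore sites with 1 CCGG, 6801 with 2, 5299 with 3 and 4532 with 4. Within 500 bp of a dense site 56.0% of shore sites had 4 CCGG and, by construction, none had 1. At 1500 to 2000 bp 10.8% had 4 and 39.1% had 1. The difference over each group was 0.14 (0.11 to 0.17) with 1 CCGG, -0.08 (-0.10 to -0.05) with 2, -0.22 (-0.24 to -0.19) with 3 and -0.33 (-0.36 to -0.30) with 4. Scaling to dense sites would make all of these positive in the same order. The MspI libraries also ran with the own count, at -0.13, -0.01, 0.05 and 0.11. HpaII alone gave 0.01, -0.08, -0.17 and -0.22, so the order held in the HpaII libraries too, over a narrower range.

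The gradient with distance was larger in shore sites of low own density, and in those of the highest it was not detectable at this depth. Between 500 to 1000 bp and 1500 to 2000 bp, sites with 1 CCGG went from a difference of 0.06 to 0.27, higher by 0.22 (0.14 to 0.29). Sites with 2 CCGG went from -0.13 to 0.05, by 0.18 (0.11 to 0.24). Sites with 3 CCGG gave 0.06 (-0.02 to 0.13) and sites with 4 CCGG 0.00 (-0.09 to 0.09). The outer band was the higher one on 17 of 19 autosomes at 1 CCGG and on 19 of 19 at 2, but on 11 of 19 at 3 and 8 of 19 at 4. In the MspI libraries the same contrast was 0.00 at 1 and at 2 CCGG, 0.02 at 3 and 0.05 at 4. HpaII alone gave 0.22, 0.18, 0.07 (0.03 to 0.12) and 0.05 (-0.00045 to 0.11), so at 3 CCGG the call depends on whether MspI enters. Levels of cutting, by contrast, were lower with distance at each own count. With 4 CCGG the log2 HpaII/MspI level was 1.53 and 1.89 at 500 to 1000 bp and 0.93 and 1.28 at 1500 to 2000 bp, in the high and the negative fraction respectively.

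Shore sites differed from far sites of equal own density, without matching for the level of cutting. The shore's difference was lower than that of far sites by 0.37 at 1 CCGG (shore minus far -0.37, -0.39 to -0.34). At 2 CCGG the value was -0.35 (-0.37 to -0.32), at 3 CCGG -0.25 (-0.28 to -0.23) and at 4 CCGG -0.20 (-0.22 to -0.17). The shore was below the far sites on 19 of 19 autosomes at 1, 2 and 3 CCGG and on 18 of 19 at 4. Weighted by the shore's MspI tags, the contrast was -0.30 (-0.31 to -0.28), and it does not depend on scaling. The MspI libraries gave -0.03, -0.02, -0.02 and 0.02 for the same contrast. Over the same sets, the log2 level of HpaII/MspI at the shore exceeded that at far sites by 1.32 to 1.70 in the high fraction and by 1.52 to 2.05 in the negative fraction. Shore and far sites sorted by level are given further below. There they lay closer together among highly cut sites than among rarely cut ones. Rarely cut far sites were, however, also at a lower level than rarely cut shore sites.

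**Figure D3:**
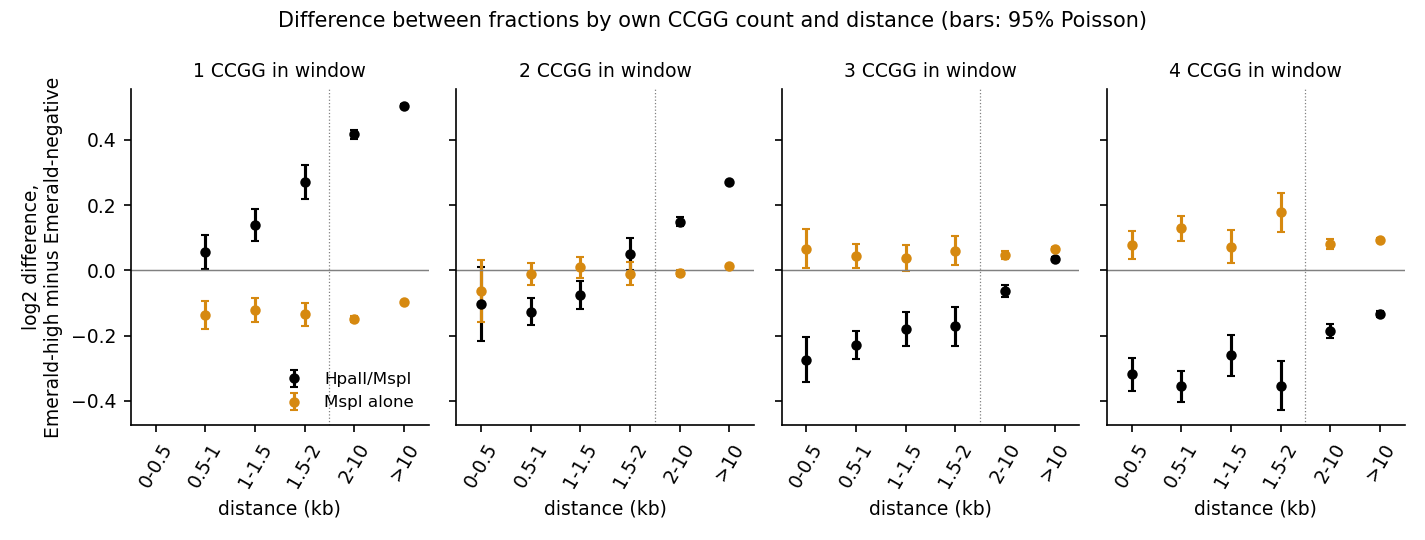
Log2 difference, Emerald-high minus Emerald-negative (y), scaled to library totals, for sites with 1, 2, 3 or 4 CCGG in their own window (panels) by distance to the nearest dense site in kb (x); right of the dotted line are sites 2 to 10 kb and over 10 kb away, and bars are 95% Poisson limits. At 1 CCGG the values climb from 0.06 to 0.51 from left to right; at 4 CCGG the shore values stay between -0.36 and -0.26. Scaling to dense sites would add 0.72 to every HpaII/MspI value and make all positive.

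Single sites were described by the angle score used with HELP tagging, 100 × (2/π) × arctan of scaled HpaII over MspI tags. Without any HpaII tag the score is 0, and with equal scaled tags it is 50. It was computed for the 3424 shore sites (14.9%) that had 10 or more tags in both MspI libraries, called covered. The median score was 62.7 (quartiles 32.1 and 79.6) in the high fraction against 62.2 (21.7 and 81.5) in the negative fraction. The medians were close under this scaling, but the spread was not. With scaling to dense sites the medians were 26.8 and 16.6. Scores under 20 made up 15.2% of covered shore sites in the high and 23.5% in the negative fraction, and scores over 80 made up 24.2% and 28.4%. Intermediate scores were thus more frequent in the high fraction, at 60.6% against 48.1%, when scaled to totals. With scaling to dense sites no score was over 80 in either fraction. The intermediate shares there, 59.2% and 44.98%, therefore only mirror the shares under 20, 40.8% and 55.0%. With the Emerald-negative HpaII library thinned, its shares under 20 and over 80 were 22.8% and 28.3%. Scaled to totals, intermediate scores were also more frequent in the high fraction away from the shore. The shares were 54.1% against 34.1% at covered far sites and 41.9% against 18.0% at covered dense sites. At covered sites 2 to 10 kb away they were 61.3% against 43.2%, so the excess was not particular to the shore.

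By distance, the balance tipped from lower to higher scores in the high fraction. Within 500 bp the score was higher in the high fraction at 37.3% of 338 covered sites and lower at 62.7%, while with scaling to dense sites it was higher at 78.4% and lower at 21.6%. At 1750 to 2000 bp it was higher at 61.2% of 528 covered sites and lower at 35.8%, or 82.2% and 14.8% with scaling to dense sites. The median score at 250 to 500 bp was 79.4 in the high and 82.4 in the negative fraction. In the outermost step it was 38.4 and 28.9. Sites with no HpaII tag were rare near the cluster, at 2 of 323 covered sites at 250 to 500 bp in each fraction. In the outermost step they were 7.01% in the high and 7.95% in the negative fraction, the latter 14.0% after thinning.

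**Figure D4:**
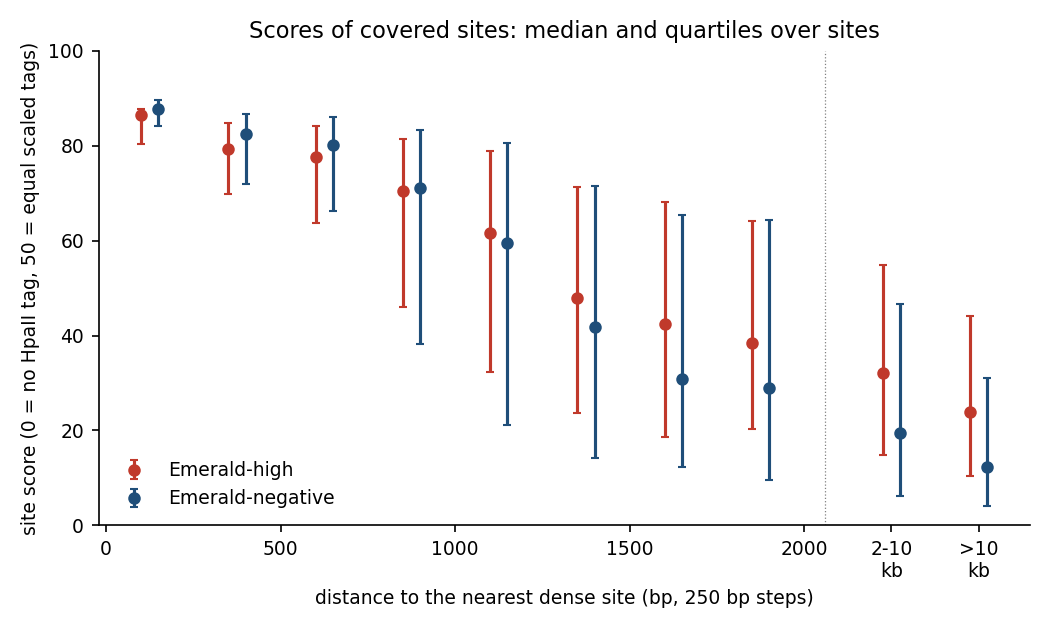
Site score (y, 0 for no HpaII tag and 50 for equal scaled tags) of covered sites by distance to the nearest dense site (x); points are medians and bars quartiles over sites, scaled to library totals. Medians go from 86.4 and 87.7 in the innermost step to 38.4 (Emerald-high) and 28.9 (Emerald-negative) in the outermost, with the fractions changing order near 1 kb; scaled to dense sites, the Emerald-high median is the higher one in every step.

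To group sites by starting level, shore sites were sorted by a score from 1 of the 2 tag parts in which each file divides its counts. The difference was then taken from the other part. Sorting used Emerald-negative HpaII against the MspI tags of both fractions, at least 10 in that part, which left 5350 shore sites. Shore sites scoring under 20 (1344 sites) had a difference of 0.59 (0.48 to 0.71), those from 20 to 80 (2525 sites) -0.03 (-0.08 to 0.03) and those over 80 (1481 sites) -0.23 (-0.30 to -0.17). Scaling to dense sites would make all of these positive. Rarely cut shore sites therefore stood above highly cut ones. With the roles of the tag parts exchanged, the values were 0.64, 0.00 and -0.27. Sorted by the Emerald-high score instead, they were 0.51, -0.03 and -0.25. Far sites sorted by the Emerald-negative score gave 0.86 (0.85 to 0.87), 0.25 (0.24 to 0.26) and -0.20 (-0.22 to -0.17). With the parts exchanged, far sites gave 0.87, 0.24 and -0.19. The rise from highly to rarely cut sites was thus not particular to the shore.

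Highly cut shore sites had a like difference near the cluster and away from it. Over a score of 80 it was -0.23 within 1000 bp (952 sites) and -0.23 at 1000 to 2000 bp (529 sites). Under a score of 20 it was 0.36 within 1000 bp (0.13 to 0.59, 239 sites) and 0.68 at 1000 to 2000 bp (0.55 to 0.81, 1105 sites). The inner value was not stable: sorted by the Emerald-high score from the other part, it was 0.07 (-0.18 to 0.33), against 0.60 for the outer band. The make-up of the shore changed with distance. Sites over 80 were 42.5% of the sorted sites within 1000 bp and 17.01% beyond, and sites under 20 were 10.7% and 35.5%. Within the sorted groups the values also varied with own density, not in the same order for both parts. Under 20 the difference was 0.94, 0.71, 0.27 and 0.24 (-0.03 to 0.52) for 1, 2, 3 and 4 CCGG, and with the parts exchanged 1.05, 0.55, 0.27 and 0.63. Over 80 it was 0.23, -0.17, -0.24 and -0.43, and with the parts exchanged 0.05, -0.23, -0.35 and -0.35. The value of 0.23 came with an MspI difference of -0.37, while HpaII alone gave -0.14 (-0.23 to -0.04). Its positive sign thus came from the MspI libraries. The sorted groups were also unequal in level in the part that gave the difference. Under 20, the Emerald-negative log2 HpaII/MspI level there was -0.77 within 1000 bp and -1.69 beyond. Over all shore sites under 20 it was -1.48, but -2.80 at far sites under 20. Over 80 the levels were closer, at 2.11 for shore and 1.99 for far sites. Shore and far sites under 20 were thus not compared at equal level.

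Next, shores were divided by how far HpaII cut the dense cluster that they adjoin, a measure made from tags of other sites. Clusters with at least 20 MspI tags over both MspI libraries were scored in the negative fraction. Of the 23044 shore sites, 18802 adjoined a cluster scoring over 80, 325 one of 50 to 80, 97 one of 20 to 50 and 210 one under 20, while 3610 adjoined a cluster with too few MspI tags. Shores of rarely cut clusters were themselves rarely cut. Beside clusters under 20, the shore's log2 HpaII/MspI level was -0.86 in the high and -1.36 in the negative fraction, below the far sites. Beside clusters over 80 it was 1.20 and 1.34.

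Shores of rarely cut clusters differed between fractions in the other direction from the rest when scaled to totals. The 210 sites beside clusters under 20 held 538 HpaII tags in the high and 652.5 in the negative fraction. Their difference was 0.49 (0.30 to 0.69). The 97 sites beside clusters of 20 to 50 gave 0.58 (0.25 to 0.92), from 185 and 211 HpaII tags. Beside clusters of 50 to 80 the value was -0.11 (-0.23 to 0.01) and beside clusters over 80 it was -0.14 (-0.15 to -0.12). MspI alone gave -0.02, -0.02, 0.04 and 0.00 for the same groups. Mean own density hardly varied between the groups under 20 and over 80, with 2.37 and 2.38 CCGG per site, while sites beside clusters of 20 to 50 had 2.06. The groups were not matched for the shore's own level of cutting. Sorted by their own score, as above, sites under 20 gave 0.59 at the shore and 0.86 at far sites. Whether the adjoining cluster adds to this was not tested.

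The same direction was found in each alternative tried. Without the shore with most Emerald-high HpaII tags, the groups under 20 and of 20 to 50 stood at 0.50 and 0.80. At sites with whole tags they stood at 0.47 and 0.58, and with clusters sorted by the Emerald-high score at 0.44 and 0.65. At the 27 and 15 sites with at least 10 tags in both MspI libraries they stood at 0.69 and 1.42, and beside clusters over 80 such sites stood at -0.06. The number of sites limits this comparison, since 116 clusters supply both groups (72 under 20 and 44 of 20 to 50). The clusters under 20 themselves, by whose Emerald-negative tags they were chosen, had a difference of 0.98, and those over 80 one of -0.74.

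**Figure D5:**
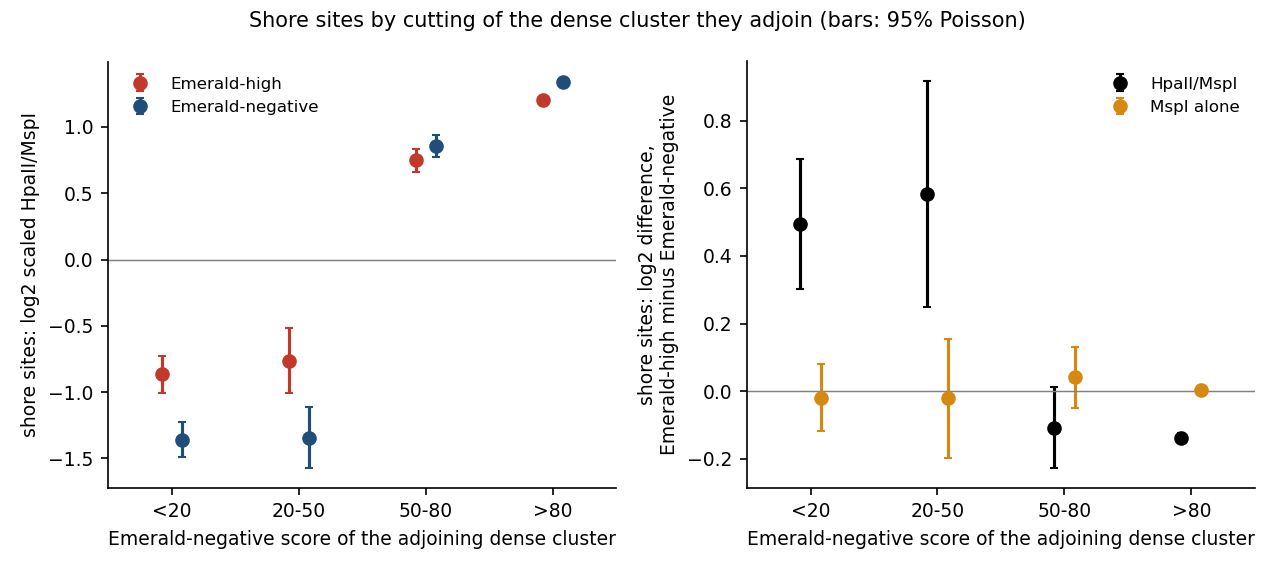
Shore sites by the Emerald-negative score of the dense cluster they adjoin (x). Left, log2 scaled HpaII/MspI level of the shore sites in each fraction; right, log2 difference, Emerald-high minus Emerald-negative, for HpaII/MspI and MspI alone, with 95% Poisson bars. Shores of clusters under 50 have differences of 0.49 and 0.58, those of clusters over 80 one of -0.14; scaling to dense sites would add 0.72 to the HpaII/MspI values and make all positive.

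The difference varied somewhat with the size of the cluster and little with its side. Shores of clusters with 1 to 4 dense sites gave -0.17 (-0.21 to -0.14), of 5 to 9 -0.14 (-0.18 to -0.11), of 10 to 19 -0.10 (-0.12 to -0.09) and of 20 or more -0.16 (-0.19 to -0.13). The values had no order by size, and mean own density varied with them, from 2.48 CCGG at 1 to 4 dense sites to 2.29 at 10 to 19; its part was not tested. With the cluster at lower coordinates the difference was -0.13 (11385 sites) and with it at higher coordinates -0.14 (11659 sites). The 169 shore sites with dense sites within 2000 bp on both sides stood at -0.24 (-0.41 to -0.07), an interval that includes the value of the other shore sites, -0.13. All of these are scaled to totals and become positive with scaling to dense sites.

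The 2 tag parts leaned with the side of the cluster. With the dense site at lower coordinates, the first part held 42.9% of Emerald-high and 41.5% of Emerald-negative HpaII tags. With it at higher coordinates, the shares were 56.9% and 57.2%. The lean therefore mirrored the position of the cluster. Over the whole shore MspI leaned the same way by less, with 47.2% and 46.3% in the first case and 52.9% and 53.6% in the second. Counting the richer side throughout, at sites with whole tags, its HpaII share was highest at 750 to 1000 bp, 58.7% in the high (58.2 to 59.2) and 59.2% in the negative fraction (58.9 to 59.6, exact intervals). At far sites it was 51.0% in both. No source used here says what each part stands for, so the lean cannot be tied to a direction of reading. Each part alone gave a difference of -0.13 over the shore.

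Few shore sites were called by themselves. Sites covered as above, on any chromosome, were tested by Fisher's exact test (two-sided) on their tags in the 4 libraries, so the test sets library against library and not condition against condition. Sites with an adjusted p (Benjamini-Hochberg) under 0.05 and a 2-fold or larger difference, 1 tag being added to each count, were called. Of 3424 shore sites tested, 3 were called higher in the high fraction (0.0876%), against 0.102% of all 218697 sites tested. None was called lower, against 0.0297%. By adjusted p alone the shore counts were also 3 and 0, against 0.106% and 0.0576% of all. At an unadjusted p under 0.05, 163 shore sites were higher (4.76%, against 7.77% of all) and 78 lower (2.28%, against 0.892%). With scaling to dense sites 128 shore sites were called higher (3.74%, against 4.17% of all) and 0 lower (against 0.00137%). The shore's share of calls was thus near the background, and the unadjusted calls were less one-sided than over all sites.

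Of the 3 called sites, 1 met the naming rule, which asks for whole tags and MspI libraries within 0.5 (log2) of each other. It lay on chromosome 1 at 31008420, with 1 CCGG in its window, 1360 bp above a cluster of 27 dense sites (31005711 to 31007060). HpaII gave 29 tags in the high and 8 in the negative fraction, beside 19 and 27 MspI tags. Fisher's exact test gave an adjusted p = 0.00757 for a log2 difference of 2.98 (SE 0.69). The scores were 76.0 and 17.9. Its MspI libraries differed by -0.50, at the edge of the rule.

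The other called sites had MspI libraries further apart and are named because so few were called. On chromosome 11 at 3050041, 11 and 1 HpaII tags stood beside 80 and 147 MspI tags (adjusted p = 0.00445, Fisher's exact test). On chromosome 18 at 67247261, 11 and 1 HpaII tags stood beside 10 and 23 MspI tags (adjusted p = 0.0143, Fisher's exact test). MspI alone differed by -0.88 and -1.14 at these sites, so part of each difference came from the MspI libraries. With counts divided by the overdispersion between the MspI libraries, 1.37, none of the 3 was called.

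Whole shores were also summed by cluster, and 214 of 7766 had at least 5 sites and 50 MspI tags in each MspI library. Their differences had a median of -0.08 (quartiles -0.34 and 0.22), with 57.5% below 0. The MspI libraries gave a median of 0.01 (quartiles -0.16 and 0.14) for the same shores. A 2-fold difference was reached by 4 shores (1.87%) in the direction of Emerald-high and by none in the other. Levels of the 2 fractions ran in parallel over these shores, with a Spearman correlation of 0.92 across shores, which share their libraries and are not replicates. For 78 shores the cluster was covered as well, and the shore stood above its own cluster in 69 of them (88.5%), with medians of -0.12 for the shores and -0.68 for the clusters. Across them, the Spearman correlation of the shore's difference with that of its cluster was -0.05, and 0.11 for MspI alone.

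The shores with the largest values, taken with 1 tag added to each sum, are given without a test, since they were picked for size. The highest lay around a cluster of 3 dense sites on chromosome 4 (40207883 to 40208352), with 24 and 10 HpaII tags (Emerald-high and Emerald-negative) beside 61 and 59 MspI tags over 5 sites. Its difference was 1.90 (0.75 to 3.04), and leaving out any 1 site gave 1.64 to 2.20. Next came the shore of a cluster of 15 dense sites on chromosome 11 (3051595 to 3052088), which includes the called site at 3050041. Over 5 sites it had 54 and 35 HpaII tags beside 301 and 306 MspI tags. MspI tags were unusually many there, with 164 and 102 at 3050643 alone, against means of 6.16 and 6.11 per shore site. The value of this shore, 1.40 (0.75 to 2.05), moved between 0.62 and 2.15 when 1 site was left out. Both adjoined clusters that were rarely or partly cut, with Emerald-high scores of 48.2 and 13.1. The other 2 were on chromosome 7 beside 6141502, at 1.14 (0.20 to 2.08), and on chromosome 3 beside 57650856 to 57651876, at 0.89 (0.03 to 1.76). The cluster on chromosome 3 was highly cut, with an Emerald-high score of 81.3, and that on chromosome 7 had 4 HpaII tags and no MspI tag in the high fraction.

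At the lower end, the shore of a cluster of 14 dense sites on chromosome 12 (113916876 to 113917513) held 58 and 149 HpaII tags beside 68 and 53 MspI tags over 10 sites, a difference of -0.94 (-1.61 to -0.27). On chromosome 13, beside 43398857 to 43399918, the value was -0.86 (upper limit -0.22), from 72 and 188 HpaII tags. On chromosome 8, beside 111238394 to 111239270, it was -0.83 (-1.36 to -0.31), from 172 and 372 HpaII tags, and on chromosome 1, beside 134638078, -0.81 (-1.55 to -0.08). MspI tags were more numerous in the high fraction at all 4, by 0.11 to 0.48 (log2). HpaII alone gave -0.59 on chromosome 12, -0.62 on 13, -0.36 on 8 and -0.70 on 1. Part of each value thus came from the MspI libraries. Leaving out any 1 site gave -1.30 to -0.54 on chromosome 12, -1.06 to -0.38 on chromosome 13, -1.07 to -0.74 on chromosome 8 and -1.03 to -0.56 on chromosome 1. Scaling to dense sites would add 0.72 to each value and to its limits, after which all 4 intervals include 0. All 4 adjoined highly cut clusters, with Emerald-high scores of 77.0 to 82.5 and Emerald-negative scores of 88.1 to 88.8, that on chromosome 1 from 7 MspI tags.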

How the data were processed

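Tags at CCGG positions were counted in 4 libraries. What the authors deposited are estimated counts per position, in 2 parts and as their sum, not scaled by depth, with fractions at 1.67% to 1.94% of positions; per the file headers, library totals equal these sums to within 1 tag. Per the submitters' processing notes the build is mm9. Aligner, filters and the handling of tags matching several places: not given in the sources used here. Coordinates are printed as deposited.

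The sum was used unless a part is named. Sums over sets of sites were scaled to library totals and compared as log2 ratios with Poisson limits. Rounded counts entered Fisher's exact test, whose null odds ratio came from the totals, with Benjamini-Hochberg adjustment over 218697 sites. Against R 4.3.3, 200 of 200 tables agreed within 0.0001. In simulated Emerald-high and Emerald-negative counts for these 218697 sites, 0% of 100 sites altered 2-fold and 3% of 100 altered 4-fold were recovered. Shore sites were joined to the nearest cluster of dense sites at most 500 bp apart. The text names up to 6 called sites and 4 shores in each direction, those with the largest values among those with whole tags and MspI libraries within 0.5 (log2). Values of named shores, at both ends, have 1 tag added to each sum. Members, lists and tests were chosen with earlier results of these data known, and the divisions by adjoining cluster, by tag part and by starting score were made after values had been seen. Analyses ran in Python 3.11.15 with numpy 2.4.6, pandas 2.3.3, scipy 1.17.1 and numba 0.67.0; figures were drawn with matplotlib 3.10.9.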

Additional observations from a re-analysis of the deposited data

Results flagged for a closer look

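Chromosome X was outside the rule, and its shore sites carried HpaII signal above the limit that a count of 0 allows. The 542 X sites that meet the other conditions held 1974 HpaII tags in the high fraction, 3511.6 in the negative fraction, and 1621.9 and 1580.8 MspI tags. Their difference was -0.11 (-0.23 to 0.02), with -0.20 (-0.39 to -0.02) within 1000 bp and 0.04 (-0.14 to 0.22) beyond, when scaled to library totals. With scaling to dense sites each of these would be positive. Tags per site were fewer than on autosomes, 2.99 and 2.92 for MspI against 6.16 and 6.11.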

How the results depend on the processing

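With 1 library per fraction and enzyme, no library could be left out. No paired analysis was possible because the groups hold 1 library each and no replicate numbers. Of 183 alternative values, 120 stayed within the main interval or call, 50 moved, 11 turned a value whose interval excluded 0 and 2 changed calls. Among those that moved, the steps at 1500 to 1750 and 1750 to 2000 bp, whose intervals include 0, also changed sign under some settings. The cause was not tested unless given. Scaling to dense sites, which adds 0.72 to each difference by construction, turned the shore difference from -0.13 to 0.59, turned the first 7 steps to 0.44, 0.44, 0.49, 0.60, 0.62, 0.68 and 0.70, and gave 128 sites called higher in place of 3. Allowing for overdispersion left 0. None was called lower in the 8 alternatives run. The shore difference was -0.050 at sites with at least 10 MspI tags in both libraries, -0.20 without sites of 1 CCGG and -0.083 at sites with no other CCGG within 100 bp. With 15 or more CCGG for a dense site, few sites remained in the innermost step: its difference was 0.43 (-1.88 to 2.75), and the gradient of 0.31 became -0.38 (-2.69 to 1.93). The step at 1250 to 1500 bp was 0.012 at sites with at least 10 MspI tags and 0.030 at sites with no other CCGG within 100 bp. The decline of the high fraction, 1.56, was 1.87 with at least 10 MspI tags, 1.37 in the first tag part, 1.39 and 2.03 with 8 and 15 CCGG for a dense site, 1.24 in 500 bp steps and 1.29 from 250 to 500 bp. That of the negative fraction, 1.87, was 1.72 from HpaII alone, 2.24 with at least 10 MspI tags, 1.65 and 2.02 in the first and other tag part, 1.65 with 15 CCGG, 1.71 without sites of 1 CCGG, 1.52 in 500 bp steps and 1.61 from 250 to 500 bp. The contrast with far sites, -0.30, was -0.31 from HpaII alone, -0.32 with at least 10 MspI tags, -0.28 with 15 CCGG, -0.28 without sites of 1 CCGG, -0.33 against sites over 50000 bp away and -0.32 with no other CCGG within 100 bp. The inner end at 250 bp and the 100 bp limit were chosen after seeing the data. Means of 6.16 and 6.11 MspI tags per shore site limit calls of single sites.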
